A study of Neurospora crassa with 6 samples.

Results

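The genes described here are 6 transcription factor genes that set which carbon source the filamentous fungus Neurospora crassa uses: clr-1 (NCU07705), clr-2 (NCU08042), xlr-1 (NCU06971), cre-1 (NCU08807), col-26 (NCU07788) and vib-1 (NCU03725). They were chosen by locus tag, and all 6 were found among the 9730 genes of the deposited table. Their RNA was measured by RNA sequencing in 3 cultures of a control strain (strain 328-4, genotype ras-1bd MAT A) and 3 cultures of a period-2 mutant (strain 1810, genotype ras-1bd prd-2::barR MAT A). Both strains thus carry the ras-1bd allele and mating type A, and the mutant alone has the prd-2::barR allele of the clock gene prd-2. All cultures were shaken in light at 25 °C for 48 h, in Bird medium with 1.8% glucose, and the labels name no cellulose, xylan or starch. Each genotype is a single strain, and any other difference between these strains cannot be told apart from the prd-2 mutation. The submitters call the replicates biological, and all p-values rest on the spread among 3 cultures per strain.

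In Neurospora, glucose is used first, and the genes for other sugars and polymers are held low while it lasts. CRE-1, a zinc finger protein, is the repressor that does much of this. CLR-1 and CLR-2 are zinc cluster activators of cellulase genes, and CLR-1, once cellobiose is present, raises the transcription of clr-2. XLR-1 activates xylanase and xylose-use genes, and COL-26 is needed for growth on starch and for a normal response to glucose. VIB-1 is needed for heterokaryon incompatibility, the cell death that follows fusion of unlike strains, and also for full cellulase production.

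The unit is FPKM, a fragment density per kilobase of transcript and per library, which allows levels of different genes to be set side by side. Summed FPKM was 657467 to 672543 per control culture and 664476 to 688885 per mutant culture, and how many fragments stand behind a value is unknown. Genes at 1 FPKM or more numbered 7810 to 7852 per control culture and 7657 to 7681 per mutant culture, so the strains differed at the low end of the scale. The mutated gene, prd-2 (NCU01019), had means of 26.2 ± 1.31 FPKM for the controls and 6.78 ± 0.784 FPKM for the mutants (SD, 3 cultures each), so signal at 25.9% of the control mean remained at the locus. As a check of the labelled mycelial cultures, 6 genes of conidiation were read. Of these, con-13 was at or near 0 in every culture, con-6 was called higher in the mutant, and con-8 and con-10 were called lower. The genes fl and eas were not called (limma adjusted p = 0.101 and 0.378). Transcripts of con-8 and eas were abundant, with means of 1120 and 727 FPKM in the controls and 590 and 1250 FPKM in the mutants. The call of con-10 was lost in each fit that left out a culture other than control replicate 3 (limma adjusted p from 0.0535 to 0.116 in these 5 fits). The summed level of the 6 genes ranged over 1810 to 1990 FPKM among controls and 1360 to 3190 FPKM among mutants, the highest value being that of mutant replicate 1. Most of that highest value was eas, at 2382 FPKM in mutant replicate 1 against 745 and 634 FPKM in the other mutants. Without mutant replicate 1 the log2 fold changes of the regulators called below were -0.81 for cre-1, -0.49 for vib-1 and -0.755 for xlr-1, and all were still called. That omission bears only on the high eas value, since con-6 and con-8 differed from every control in all 3 mutants. The part of conidiation in the results was not tested.

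The 3 regulators whose transcripts fell in the mutant were cre-1, vib-1 and xlr-1, to 59.2%, 69.7% and 48.2% of the control mean. The transcripts of clr-1 and col-26 did not pass the test, and clr-2 was too low to be tested. Thus 3 of the 5 tested regulators were called, all lower. Across the transcriptome 47.8% of 7797 tested genes were called, 23.8% lower and 24.0% higher. Against those shares, 3 calls among 5 genes are not a result about the regulators as a group. Calls are at an adjusted p under 0.05 from limma, fitted on log2(FPKM + 1) over all genes with a mean of at least 1 FPKM.

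**Figure D1:**
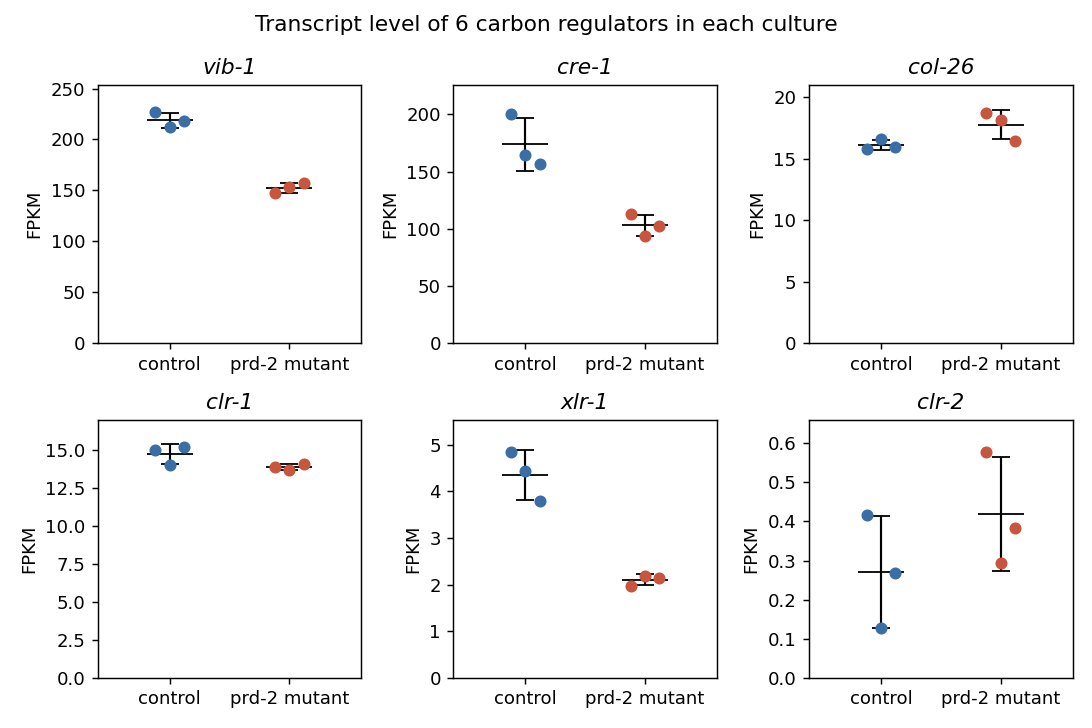
FPKM (vertical axes, each starting at 0) of the 6 regulators in every culture; points are cultures, the long bar is the mean and the error bars are the SD of 3 cultures. The mutants lie below all controls for vib-1, cre-1 and xlr-1, and the strains overlap for col-26, clr-1 and clr-2.

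The transcript of the glucose repressor, cre-1, measured 200.0, 165 and 157 FPKM in control replicates 1 to 3 and 112, 94.0 and 102 FPKM in mutant replicates 1 to 3. Every mutant lay below every control, and control replicate 1 stood above the other controls. The means were 174 ± 23.0 and 103 ± 9.28 FPKM (SD, n = 3 each), and the log2 fold change came to -0.75 (SE 0.106; adjusted p = 0.00121 by limma). Without control replicate 1 the log2 fold change was -0.64, the smallest of all settings tried. The transcript ranked 614 of 9730 by control mean and 1118 by mutant mean.

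The vib-1 transcript was the most abundant of the 6 in both strains. It measured 227, 212 and 218 FPKM in control and 147, 153 and 157 FPKM in mutant cultures. The cultures of a strain lay close together, with a coefficient of variation of 3.29% in the controls and 3.12% in the mutants, and the strains did not overlap. The log2 fold change was -0.52 (SE 0.053; adjusted p = 0.000265 by limma), which is the smallest and the most precise of the 3 falls.

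The xylanase activator xlr-1 was expressed at a low level. It measured 4.84, 4.45 and 3.79 FPKM in control and 1.97, 2.19 and 2.14 FPKM in mutant cultures. The lowest control was above the highest mutant, and the mutants varied less than the controls (SD 0.117 and 0.533 FPKM). The log2 fold change was -0.79 (SE 0.101; adjusted p = 0.000754 by limma). Since the value 1 added before taking logs is large beside such levels, the change was -1.01 with 0.1 added in its place. Under quantile normalization it was -0.54.

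The cellulase activator clr-1 differed little between the strains. It measured 15.0, 14.0 and 15.2 FPKM in control and 13.9, 13.6 and 14.1 FPKM in mutant cultures, so the lowest control lay within the mutant range. The log2 fold change of -0.08 (SE 0.055; adjusted p = 0.275 by limma) had a 95% interval from -0.21 to 0.05. That interval does not reach the changes estimated for cre-1, vib-1 or xlr-1.

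Its partner clr-2 was close to the lower limit of the table. It measured 0.416, 0.127 and 0.269 FPKM in control and 0.578, 0.292 and 0.385 FPKM in mutant cultures. The ranges overlap, and the means of 0.271 ± 0.145 and 0.418 ± 0.146 FPKM (SD, n = 3 each) differ by about as much as replicates of a strain do. It ranked 8305 of 9730 by control mean. When genes with low values were also fitted, its log2 fold change was 0.16 (limma adjusted p = 0.302), and no difference could be detected.

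The starch and glucose regulator col-26 measured 15.80, 16.62 and 15.96 FPKM in control and 18.7, 18.2 and 16.5 FPKM in mutant cultures. Mutant replicate 3 lay within the control range and the other mutants above it. The log2 fold change was 0.13 (SE 0.063; adjusted p = 0.126 by limma; 95% interval -0.02 to 0.28). Without mutant replicate 3 it was 0.18 and passed the threshold (limma adjusted p = 0.0491). That was the 1 of 14 alternative settings in which col-26 was called, and its adjusted p ran up to 0.307 in the others.

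**Figure D2:**
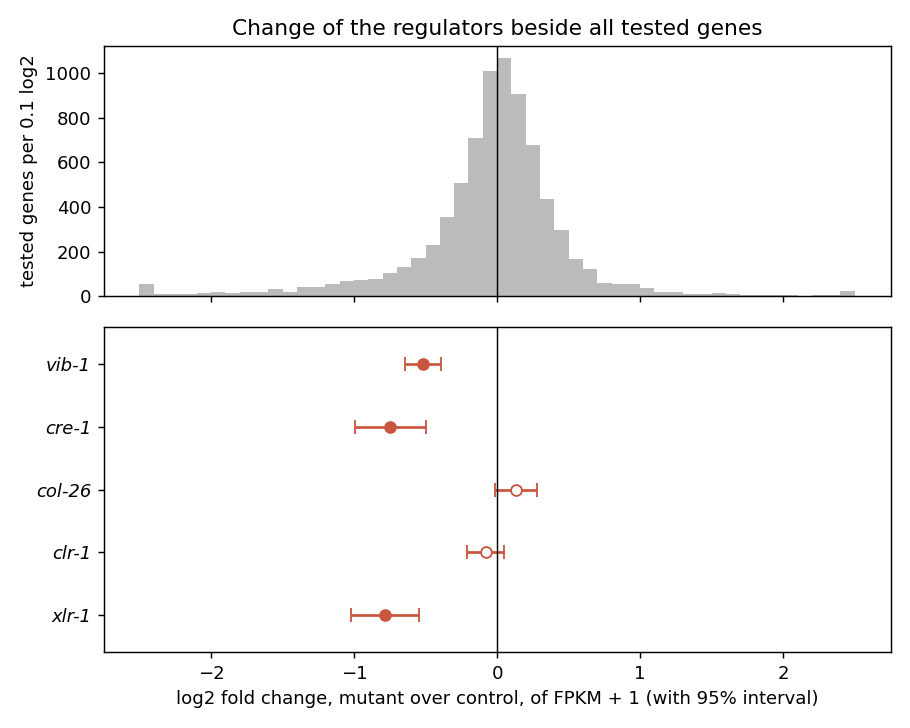
Log2 fold change of FPKM + 1, mutant over control (horizontal axis), for the 5 tested regulators with their 95% intervals, below a histogram of the 7797 tested genes in which values beyond 2.5 in size are collected in the outermost bars. Filled points passed the test: cre-1 at -0.75, vib-1 at -0.52 and xlr-1 at -0.79, while the intervals of clr-1 and col-26 include 0.

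The falls were of a size shared by many genes. Of the tested genes, 583 had a lower log2 fold change than xlr-1, 622 a lower one than cre-1 and 947 a lower one than vib-1. The median size of change over all tested genes was 0.214 log2 units. Strains did not overlap for 3 of the 5 tested regulators and for 59.8% of all tested genes. In a whole culture, fewer hyphae expressing a gene and less RNA per hypha cannot be told apart.

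The order of levels was the same in both strains, from vib-1 through cre-1, col-26, clr-1 and xlr-1 to clr-2. Every neighbouring pair in that order had ranges that did not overlap, in the controls and in the mutants. As a description, the mean of cre-1 was 10.8 times that of col-26 in the controls and 5.8 times in the mutants. That of clr-1 was 3.37 times that of xlr-1 in the controls and 6.6 times in the mutants. The closest neighbours in the controls were col-26 and clr-1, whose means stood in a ratio of 1.1. The summed level of the 6 genes was 409.6 to 462.6 FPKM across control and 281.4 to 295.1 FPKM across mutant cultures, and nearly all of it came from vib-1 and cre-1.

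Ratios within a culture are free of any scaling between libraries and are given as a description of how pairs of regulators stood to each other. All 10 pairs among the 5 tested regulators were compared with a two-sided exact permutation test, which for 3 against 3 cultures cannot give a p below 0.1. The ratio of vib-1 to cre-1 was 1.27 ± 0.13 in the controls and 1.49 ± 0.163 in the mutants (SD, n = 3 each), with overlapping ranges (exact permutation p = 0.2). The ratio of col-26 to clr-1 also overlapped, at 1.1 ± 0.0779 and 1.28 ± 0.0972 (exact permutation p = 0.2). In the other 8 pairs the strains were apart, at the smallest p the test allows (exact permutation p = 0.1, Benjamini-Hochberg adjusted 0.125). The pairs of vib-1, cre-1 or xlr-1 with clr-1 or col-26 repeat the differences already seen in the single genes. How often other pairs of genes are apart was not counted, and 59.8% of single tested genes did not overlap. The number of pairs apart is thus no evidence of unequal change.

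Some of these ratios are given by culture, none of them past the threshold of 0.05. The ratio of clr-1 to xlr-1 was 3.09, 3.14 and 4.01 in the controls and 7.06, 6.22 and 6.58 in the mutants. The ratio of the repressor to the cellulase activator, cre-1 to clr-1, was 13.4, 11.8 and 10.3 in the controls and 8.1, 6.89 and 7.29 in the mutants. Relative to clr-1, both xlr-1 and cre-1 had values in each mutant culture below those in any control. For cre-1 against xlr-1 the gap was narrow, with 41.4 as the highest control ratio and 42.9 as the lowest mutant ratio.

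**Figure D3:**
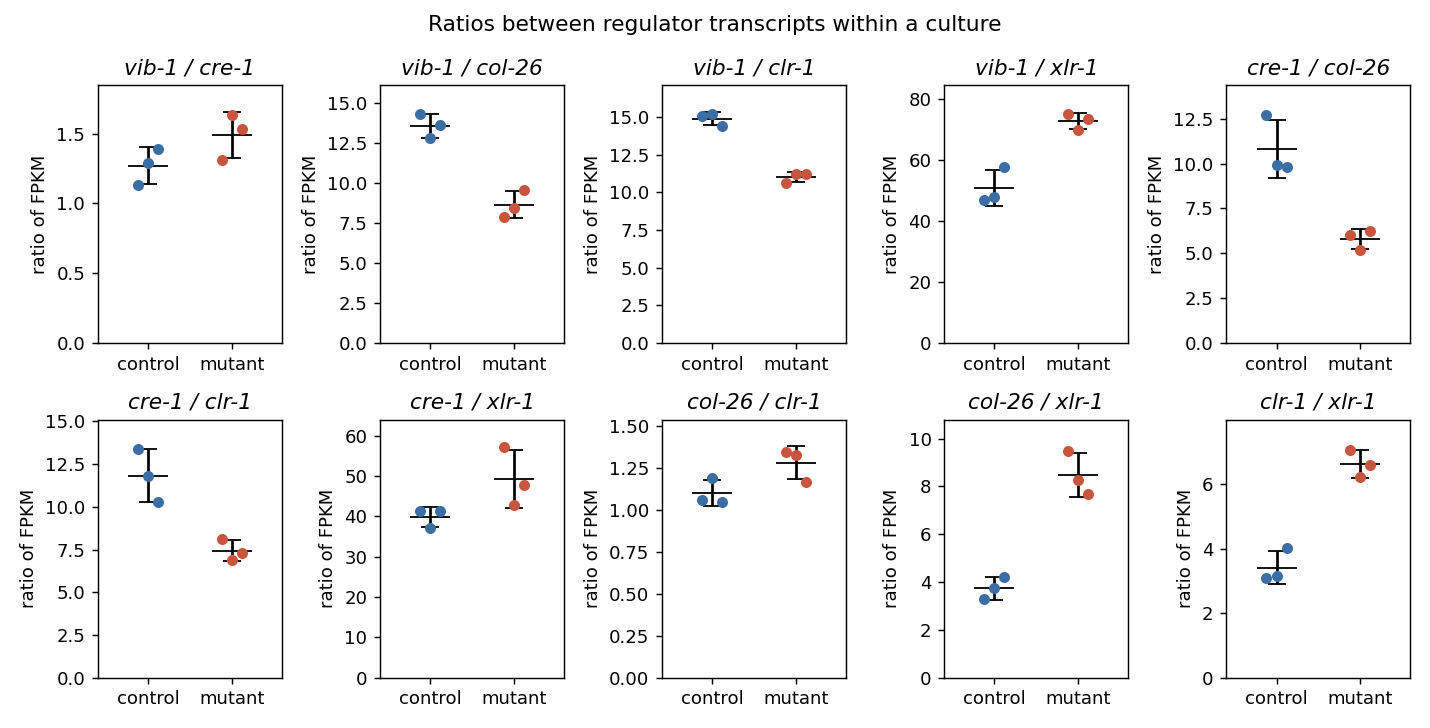
Ratio of FPKM within a culture (vertical axes, starting at 0) for the 10 pairs of tested regulators; points are cultures, bars are the mean and SD of 3 cultures. Control and mutant overlap for vib-1 / cre-1 and col-26 / clr-1 and are apart in the other 8 pairs.

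In the RefSeq gene table of assembly NC12, the span of none of the 6 genes overlaps that of another annotated gene. Of their 12 direct neighbours 8 were in the table of values and 5 were tested. Only NCU08806, next to cre-1, was called: it fell from 20.2 to 9.26 FPKM (log2 fold change -1.04, limma adjusted p = 0.000175). The share called among all tested genes was 47.8%. The neighbour of vib-1, NCU03726, measured 19.1 FPKM in control and 19.2 FPKM in mutant cultures. Both neighbours of xlr-1 are tRNA genes with no value in the table.

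For each regulator, the genes with the most similar profile over the 6 cultures were found by Pearson's r of log2(FPKM + 1). The cultures share 2 strains, so a difference between strains alone gives a high r. For vib-1 they were NCU02654 (r = 0.9989) and neg-1 (r = 0.9987), a glucanase gene that went from 19.7 to 3.53 FPKM, and 885 tested genes exceeded 0.95. For cre-1 they were NCU03578 (r = 0.9969) and NCU03698 (r = 0.9964), with 476 genes above 0.95. For xlr-1 they were NCU08367 (r = 0.9993) and NCU05141 (r = 0.9985), with 798 above 0.95.

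The regulators that did not separate the strains had fewer genes above 0.95. Since so many genes differ between the strains, these counts restate which regulators separated them. For clr-1 the closest genes were NCU06714 (r = 0.9916) and NCU06446 (r = 0.9832), and 15 genes exceeded 0.95. For col-26 they were NCU00495 (r = 0.9931) and NCU04534 (r = 0.9865), and 22 exceeded it. For clr-2, at its very low level, they were NCU03122 (r = 0.9767) and the cellobiohydrolase gene gh6-2 (r = 0.96), and 4 exceeded it.

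Genes on which these regulators are known to act were then listed, along with genes of glucose sensing and uptake and other carbon regulators, which were not listed as targets. The counts of every list stand beside 47.8% called among all tested genes, 23.8% lower and 24.0% higher. Of 20 genes of cellulose use, the class induced through CLR-1 and CLR-2, 17 were tested. Of these 6 fell, 3 rose and 8 did not pass. Under quantile normalization, 5 of the 17 fell and 5 rose, so the balance of falls and rises depends on the scaling. Without that normalization, the median log2 fold change of the 17 genes was -0.24, against 0.01 for all tested genes, which were not matched for level. That difference was not tested, and the list was drawn up with lower glycoside hydrolase genes already known, so it is not independent evidence of a direction. The largest falls were in the endoglucanase gene gh5-1 and the beta-glucosidase genes gh1-1 and gh3-4. In gh5-1 the controls measured 7.70, 6.23 and 6.86 FPKM and the mutants 1.21, 1.19 and 0.663 FPKM (log2 fold change -1.98 with SE 0.138; adjusted p = 5.5e-05 by limma). In gh1-1 the change was -1.57 (limma adjusted p = 0.000199) and in gh3-4 it was -1.28 (limma adjusted p = 0.00111), and the strains did not overlap in either gene. Falls were also called for both cellodextrin transporter genes. The change of cdt-1, whose span overlaps that of NCU10770, was -0.95. That of cdt-2 was -0.49, and it was not called without control replicate 3 (limma adjusted p = 0.0624), without mutant replicate 2 (limma adjusted p = 0.0554) or under quantile normalization (limma adjusted p = 0.252). The last of the 6 was gh61-6, at -0.65.

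Not all cellulose genes fell. The main cellobiohydrolase gene cbh-1 measured 11.2 ± 0.718 and 10.2 ± 0.613 FPKM (SD, n = 3 each; limma adjusted p = 0.218). The endoglucanase gene gh7-1 rose from 4.41 to 7.03 FPKM (log2 fold change 0.56, limma adjusted p = 0.00848). The rise of gh61-5 was 0.32 log2 units. That of gh45-1, 0.26 (limma adjusted p = 0.0357), was not called on the TPM scale or without control replicate 2 or 3 or mutant replicate 1 or 2 (limma adjusted p from 0.0614 to 0.107 in these 5 settings). Below the filter were NCU05853 (mean 0.480 FPKM in controls and 0.0725 FPKM in mutants), gh61-7 (0.914 and 0.272 FPKM) and gh61-4, listed at 0 in every control and at 0.12 to 0.62 FPKM in the mutants. Fitted without the filter, NCU05853 and gh61-7 were called lower (limma adjusted p = 0.00468 and 0.0275) and gh61-4 was not called (limma adjusted p = 0.0554). The summed level of the 20 genes was 129.9 to 143.3 FPKM across control and 104.2 to 107.5 FPKM across mutant cultures.

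Of 11 genes of xylan and xylose use, the class activated by XLR-1, 8 were tested; 3 fell, 2 rose and 3 did not pass, with a median of -0.26. The xylose reductase gene xr measured 15.0, 16.7 and 14.5 FPKM in control and 5.53, 5.96 and 6.49 FPKM in mutant cultures (log2 fold change -1.23 with SE 0.079; adjusted p = 3.91e-05 by limma). The annotated span of xr overlaps that of NCU08385, so its value is uncertain. The gene for a later step, the xylulokinase gene xyk-1, rose instead, from 18.8 ± 2.06 to 31.7 ± 3.99 FPKM (SD, n = 3 each; log2 fold change 0.72, limma adjusted p = 0.00158). NCU00891, which overlaps NCU00890, also rose (log2 fold change 0.57), and NCU09652, which overlaps NCU09653, fell (log2 fold change -0.70). The xylanase gene gh10-3 fell by 0.76 log2 units (limma adjusted p = 0.0389), with mutant replicate 1 at 8.66 FPKM and the other mutants at 16.9 and 18.8 FPKM. Without that culture its change was -0.44, and without any 1 control it no longer passed (limma adjusted p = 0.0778, 0.108 and 0.0741 without control replicates 1, 2 and 3). Nor did it pass when no filter was applied (limma adjusted p = 0.051). The xylanase genes gh10-1, gh10-2 and gh11-2 lay below the filter. Of these gh10-2, whose span overlaps that of NCU08190, was called lower when no filter was applied (0.257 and 0.071 FPKM, limma adjusted p = 0.0195).

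**Figure D4:**
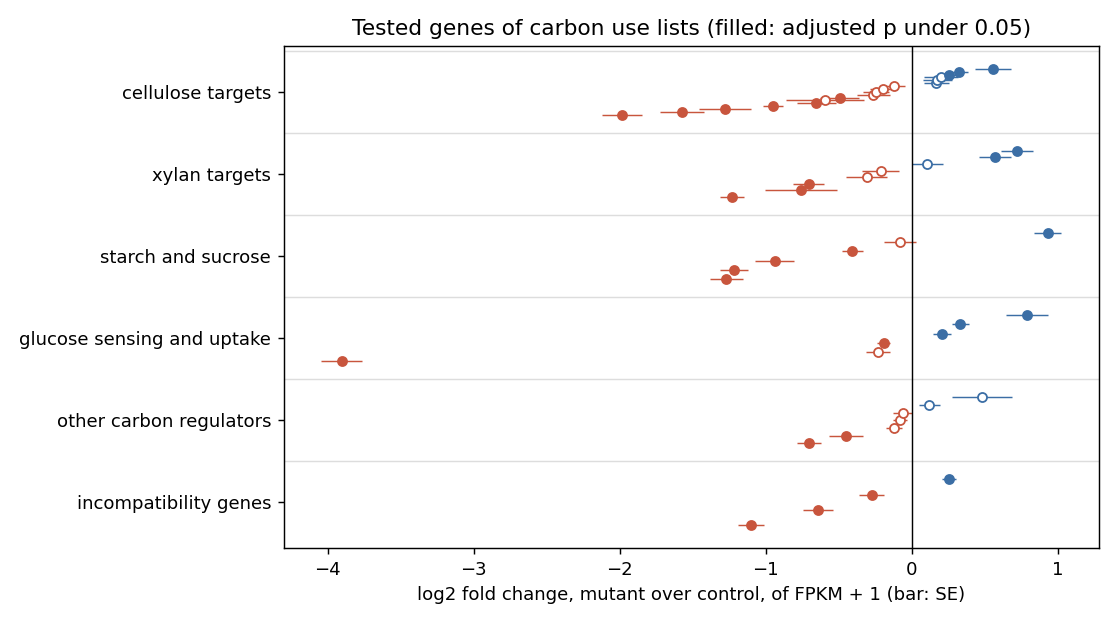
Log2 fold change of FPKM + 1, mutant over control (horizontal axis; bars are limma's SE), of each tested gene in 6 lists of carbon use and incompatibility genes; red is lower, blue is higher, filled points passed the test. Falls and rises occur in 5 of the 6 lists among the genes that passed, hgt-1 lies far to the left at -3.90, and in the list of other carbon regulators only falls passed.

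Of 6 genes for starch and sucrose use, 4 fell and 1 rose, with a median of -0.67. Across all tested genes 47.8% were called. The invertase gene inv went from 36.4, 40.9 and 42.0 FPKM in control cultures to 13.2, 17.9 and 16.9 FPKM in mutant cultures (log2 fold change -1.27, limma adjusted p = 0.000164). Its span overlaps that of NCU04264, so the value is uncertain. The genes gh31-3, which overlaps NCU04675, and gh13-2 fell by 1.21 and 0.94 log2 units, and gla-2 fell by 0.41. Under quantile normalization gla-2 was not called (limma adjusted p = 0.0539). The alpha-amylase gene gh13-1 went the other way, from 286, 299 and 334 FPKM to 618, 623 and 520 FPKM (log2 fold change 0.93 with SE 0.093; adjusted p = 0.000246 by limma). The glucoamylase gene gla-1 was not called (29.9 ± 3.99 and 28.2 ± 3.0 FPKM, SD, n = 3 each; limma adjusted p = 0.593). The summed level of the list, most of which was gh13-1, was 365.1 to 424.6 FPKM across control and 569.6 to 676.4 FPKM across mutant cultures.

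Of 6 genes for glucose sensing, uptake and phosphorylation, 2 fell, 3 rose and 1 did not pass, with a median of 0.008. The glucose transporter gene hgt-1 measured 28.7, 21.9 and 19.6 FPKM in control and 0.475, 0.763 and 0.604 FPKM in mutant cultures, the largest change in any of the lists (log2 fold change -3.90 with SE 0.143; adjusted p = 6.75e-06 by limma). NCU01633 rose from 78.6 ± 11.5 to 137 ± 22.3 FPKM (SD, n = 3 each; log2 fold change 0.79, limma adjusted p = 0.0038). NCU00575, whose span overlaps that of NCU14040, rose by 0.33 log2 units. The hexokinase gene emp-1 had the highest level of the list and a change of 0.21 (limma adjusted p = 0.0241). It was not called without control replicate 2 or 3 or mutant replicate 2 or 3 (limma adjusted p from 0.0633 to 0.078), nor under quantile normalization (limma adjusted p = 0.141). The kinase gene prk-10, the Neurospora counterpart of yeast SNF1, was slightly lower (log2 fold change -0.19, limma adjusted p = 0.013; 0.0511 without control replicate 2). The glucose sensor gene sor-4, also called rco-3, did not pass (log2 fold change -0.23, limma adjusted p = 0.0539), but it did without control replicate 2 (limma adjusted p = 0.0234) and on the TPM scale (limma adjusted p = 0.0313).

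Of 7 other regulators of carbon use, 2 fell and 5 did not pass, with a median of -0.078. NCU05846 went from 14.4 ± 0.816 to 8.47 ± 0.871 FPKM (SD, n = 3 each; log2 fold change -0.70, limma adjusted p = 0.000522). NCU05414, at 1.86 and 1.09 FPKM, had a change of -0.45 (limma adjusted p = 0.0161), which was lost without mutant replicate 1 (limma adjusted p = 0.0517) and under quantile normalization (limma adjusted p = 0.36). The co-repressor genes rco-1 and rcm-1 measured 189 and 51.9 FPKM in control and 179 and 47.7 FPKM in mutant cultures, and neither passed (limma adjusted p = 0.224 and 0.118). Under quantile normalization rco-1 did, with a change of -0.16 (limma adjusted p = 0.03).

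For vib-1, 4 genes of heterokaryon incompatibility were read, and all 4 passed the test, with a median of -0.456. Those known to need VIB-1 for their expression, pin-c, het-6 and tol, were lower. The gene pin-c measured 5.61, 6.33 and 6.07 FPKM in control and 2.42, 2.36 and 2.01 FPKM in mutant cultures (log2 fold change -1.10 with SE 0.088; adjusted p = 9.62e-05 by limma). The gene het-6 changed by -0.64 (limma adjusted p = 0.00212). The change of tol was small, at -0.27 (limma adjusted p = 0.0335). It was not called without control replicate 2 or 3 or mutant replicate 1 or 2 (limma adjusted p from 0.0711 to 0.102), nor under quantile normalization (limma adjusted p = 0.342). The remaining gene, het-c, was higher, at 46.3 ± 0.736 and 55.7 ± 1.61 FPKM (SD, n = 3 each; log2 fold change 0.26, limma adjusted p = 0.00384). With 47.8% of all tested genes called, the counts and medians of these short lists are descriptions of the genes in them. None of the medians was tested against that of all genes.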

How the data were processed

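The authors deposited FPKM values, 1 column per culture; STAR and Cuffnorm are named per the submitters' processing notes. Genome build, annotation, filters and use of strand are not given in the sources used here. Fragment counts are unknown, so no counting interval is given, and precision rests on 3 cultures per strain. Symbols and neighbours came from RefSeq's NC12 table, which held 9729 of 9730 locus tags. NCU01019 as prd-2 comes from knowledge of the study. List genes without a symbol there are named by locus tag.

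Values were taken as log2(FPKM + 1). Genes with a mean of at least 1 FPKM over 6 cultures (7797) were fitted with limma 3.58.1 (eBayes with trend; R 4.3.3), without a block, and p-values were adjusted by Benjamini-Hochberg across all of them. The fit was tested on simulated data. Exact permutation tests used scipy 1.17.1. All fold changes are on that log2 scale, which understates changes of low genes.

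The members, lists and tests were chosen with earlier results of these data known, lower glycoside hydrolase genes among them. Named genes are the 6 regulators, the 3 largest called changes of each list and the 2 genes most like each regulator; the other list genes, the conidiation genes and the neighbours were chosen after values were seen. Settings tried were omission of each culture, the replicate number as a block, no trend, median centring, quantile normalization, TPM scale, a stricter filter (mean of 5 FPKM), none at all, and a pseudocount of 0.1. The planned zinc cluster family and promoter motifs were not analysed here.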

Additional observations from a re-analysis of the deposited data

How the results depend on the processing

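The calls of cre-1, vib-1 and xlr-1 held, in the same direction, in every setting that tested them (14, 14 and 13; xlr-1 lies below a minimum mean of 5 FPKM). The change of clr-1 stayed negative and uncalled in all 14. The change of clr-2 moved to 0.526 with a pseudocount of 0.1. Leaving out each culture in turn gave changes from -0.816 to -0.641 for cre-1, -0.54 to -0.493 for vib-1, -0.865 to -0.721 for xlr-1, -0.113 to -0.057 for clr-1, 0.077 to 0.241 for clr-2 and 0.095 to 0.182 for col-26. It gave 3 to 4 regulators called, the fourth being col-26 without mutant replicate 3. A minimum mean of 5 FPKM left fewer genes to test and 4 calls among the cellulose genes, 2 for starch and sucrose and 1 among the other regulators. Leaving out a culture gave 7 to 11 calls for cellulose, 4 to 6 for xylan, 5 to 5 for starch and sucrose, 4 to 5 for glucose sensing and uptake, 1 to 2 for the other regulators (1 without mutant replicate 1, which lost NCU05414) and 3 to 4 for incompatibility. The median change of all genes was 0.009, with -0.023 on the TPM scale and 0.047 under quantile normalization, and no regulator changed sign.

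With the replicate number as a block, 3 regulators were called, with changes of -0.746 for cre-1, -0.518 for vib-1 and -0.786 for xlr-1, and 3363 genes were called in all, against 3725 without it. Deviations of same-numbered cultures had correlations of -0.104, -0.175 and 0.068 across genes for numbers 1, 2 and 3, so the numbers were not taken to pair the cultures. Fragment depth is unknown, which limits clr-2 and the list genes under 1 FPKM most.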
